A study of Mus with 12 samples.

Results

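The genes described here are 6 markers of macrophage identity and adhesion: Adgre1, Csf1r, Cx3cr1, Cd68, Sirpa and Itgam. They were chosen by name from the 754 gene probes of the panel, and all 6 counted above the background threshold of 53.1 in all 12 libraries, so that 6 of 6 entered the tests over 682 genes. NanoString counting, in which fluorescent barcodes on probe pairs are counted one RNA molecule at a time, was applied to kidney cells carrying F4/80. The cells came from 3 wild-type mice (WT, Aif-1+/+; mice 12, 26 and 36) and 3 mice labelled as Aif1 knockouts (KO, Aif-1 -/-; mice 17, 23 and 32). Aif1 encodes Iba1, a calcium-binding protein of macrophages. In every mouse the left kidney had gone through 30 min of ischemia and the right kidney had not, and both were taken 4 days later. This gave 4 groups of 3 libraries: WT injured, WT contralateral, KO injured and KO contralateral. Each contralateral kidney came from a mouse that had an injured kidney on the other side, so no library represents an unoperated animal. The labels state no age, sex, strain or design of the deletion.

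Kidney macrophages have at least 2 sources. Resident cells, seeded early in life and kept up locally, carry much F4/80 and CX3CR1 and less CD11b, whereas cells arriving from the blood as monocytes carry more CD11b, CCR2 and Ly6C. Ischemic injury kills tubule cells and draws monocytes into the kidney, where they become macrophages over the following days. Many macrophages depend on signals through the colony stimulating factor 1 receptor. Neither class is pure by any single gene: CX3CR1 also marks patrolling monocytes, CD11b is also on neutrophils and on many resident macrophages, and SIRP alpha is also on dendritic cells.

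Each gene has its own role. Adgre1 encodes F4/80 itself, an adhesion-type G protein-coupled receptor. The cells were pulled out by their F4/80 protein, so Adgre1 is both a measured gene and the basis of the selection. Csf1r encodes the receptor for the growth factors CSF1 and IL-34, and Cx3cr1 the receptor for the membrane-bound chemokine fractalkine. Cd68 encodes a glycoprotein of late endosomes and lysosomes that is abundant in phagocytes. Sirpa encodes an inhibitory receptor that reads CD47, the "do not eat me" signal on other cells. Itgam encodes CD11b, the alpha chain that pairs with the beta chain CD18 (Itgb2) to form the integrin Mac-1, which binds ICAM1 and the complement fragment iC3b.

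Libraries totalled between 255274 and 904220 counts, and the geometric mean of 20 housekeeping genes varied 7.65-fold, against 1.18-fold for the positive controls. The most RNA was in 3 libraries, both of WT mouse 12 and the injured one of KO mouse 17. The 6 genes together made up 0.247% and 0.346% of the endogenous counts in the contralateral and injured kidneys of mouse 12, and between 0.640% and 1.60% in the other 10 libraries. The probe for Aif1 counted between 54 and 95 in all 12 libraries, with means of 66.3 ± 8.14 and 84.7 ± 10.5 in contralateral and injured WT kidneys and 69.3 ± 14.6 and 79.3 ± 14.6 in the KO kidneys (SD, n = 3 each). It did not separate the genotypes. In WT kidneys too it counted only 57 to 95, near the threshold of 53.1 and the highest single negative control count of 58. In KO mouse 17 it went from 71 to 81 while the housekeeping mean rose 4.28-fold. With counts this low, and the part of the gene it reads not known here, the probe checks neither the labels nor the deletion.

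In the selected cells 5 of the 6 markers rose in the injured kidneys, averaged over the responses of both genotypes. Cd68 was 2.48-fold and Itgam 2.41-fold higher in the injured kidneys, followed by Sirpa at 1.79-fold, Cx3cr1 at 1.74-fold and Adgre1 at 1.59-fold. Csf1r, at 1.39-fold, did not pass the test. These 5 calls (edgeR's quasi-likelihood test with mouse as a block, Benjamini-Hochberg adjusted p under 0.05 over all 682 genes) stand beside a background of 7.33% of genes called as higher (50 of 682). The median log2 fold change of the 6 markers was 0.82, and that of all genes tested was -0.07. In these pooled cell samples, fewer cells of a type and less RNA per cell cannot be told apart. The summed markers of kidney epithelium and stroma on the panel moved the other way. Their 9 genes made up between 6.29% and 19.0% of endogenous counts in contralateral and between 2.58% and 13.9% in injured kidneys. This share was lower on the injured side in 6 of 6 mice. Most of the sum came from Egf and Klk1, with mean normalised counts of 13293 and 11156 in contralateral kidneys. The stromal genes Pdgfra, Pdgfrb, Col1a2 and Col3a1 averaged between 68.3 and 153 there. Klk1 and these stromal genes were named after their values were seen. The summed normalised count of all 9 genes was higher on the injured side in 1 of 6 mice. Of these genes, Havcr1, a marker of tubule injury also known as KIM-1, rose by 1.01 on the log2 scale (edgeR adjusted p = 0.0025), while the tubule genes Egf and Fbp1 fell by 1.80 and 0.85 (adjusted p = 0.033 and 0.038). Fbp1 was below the threshold in 8 of 12 libraries, so the size of its fall is uncertain. The part of epithelial and stromal cells in the marker changes was not tested.

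**Figure D1:**
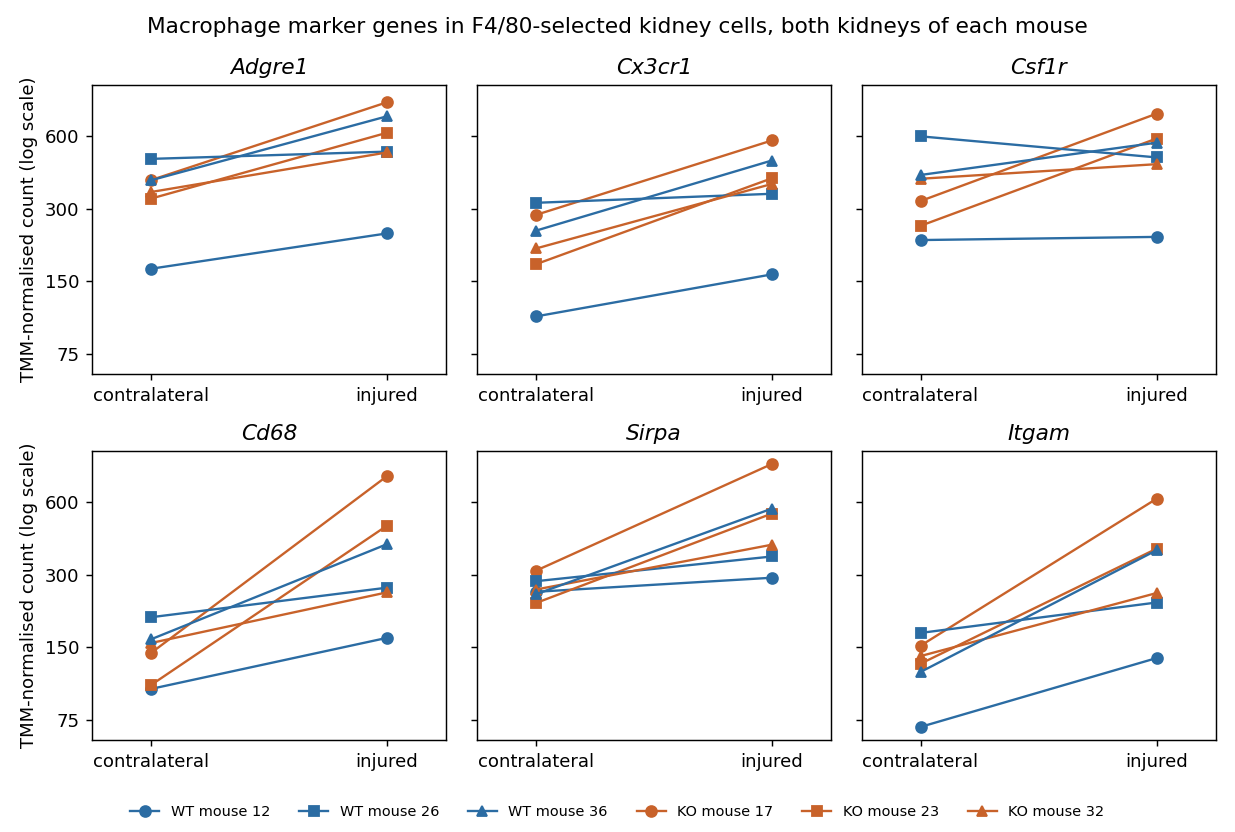
TMM-normalised counts (log scale) of the 6 marker genes in the contralateral and injured kidney of each mouse, 1 line per mouse, WT in blue and KO in orange. Lines slope upward for every gene in every mouse except Csf1r in WT mouse 26, which goes from 599 to 489.5.

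Levels are given below as normalised counts, that is, raw counts divided by the library's TMM effective size relative to the mean library. Adgre1 went from 169 to 237 in mouse 12, from 483 to 517 in mouse 26 and from 394 to 725 in mouse 36, the WT mice. Among the KO mice it went from 394 to 829.7 in mouse 17, from 330.3 to 619.9 in mouse 23 and from 352 to 513 in mouse 32. All 6 mice were thus higher on the injured side, by 1.07-fold (mouse 26) to 2.10-fold (mouse 17), but the 2 sides overlapped because mouse 12 lay below every other mouse on both. The paired estimate was 0.67 ± 0.19 on the log2 scale (SE; edgeR adjusted p = 0.034). This call was the least secure of the 5. With any 1 mouse other than mouse 32 left out it was lost (adjusted p from 0.087 to 0.32), with DESeq2 size factors the adjusted p was 0.10, and with no filter on low counts it was 0.066.

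Cx3cr1 followed Adgre1 closely. In WT mice 12, 26 and 36 its normalised count went from 107 to 160.0, from 317 to 346 and from 243 to 475. In KO mice 17, 23 and 32 it went from 282 to 575, from 176 to 400.9 and from 205 to 379.7. Every mouse was higher on the injured side, mouse 26 by 1.09-fold and the 3 KO mice by 1.85-fold to 2.27-fold. The estimate of 0.80 ± 0.17 (SE) passed with an edgeR adjusted p of 0.0045, and without mouse 23 it no longer did (adjusted p = 0.084).

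Csf1r stood out among the 6 for its small and uneven change. Raw counts in WT mice barely moved, from 413 to 468 in mouse 12, from 387 to 405 in mouse 26 and from 448 to 466 in mouse 36. Among KO mice the raw count went from 225 to 1731 in mouse 17 and from 195 to 696 in mouse 23, and was 261 in both kidneys of mouse 32. After normalisation the injured to contralateral ratios were 1.03, 0.818 and 1.36 in WT mice 12, 26 and 36, and 2.30, 2.30 and 1.15 in KO mice 17, 23 and 32. The receptor gene was therefore higher on the injured side in 5 of 6 mice, with WT mouse 26 the exception. Its estimate was 0.47 ± 0.20 (SE; edgeR adjusted p = 0.24). Leaving out KO mouse 32 brought it past the threshold (0.62, adjusted p = 0.0017).

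Cd68, the lysosomal glycoprotein, had the largest estimate of the 6 and ranked at place 11 of 682 genes by log2 fold change. Normalised counts went from 101 to 164 in mouse 12, from 199.6 to 265 in mouse 26 and from 162 to 401 in mouse 36. They went from 142 to 769.5 in KO mouse 17, from 104 to 479 in mouse 23 and from 156 to 253 in mouse 32. KO mice 17 and 23 lay above all other mice in their ratios (5.42-fold and 4.59-fold), and KO mouse 32, at 1.62-fold, lay within the WT range of 1.33-fold to 2.48-fold. The estimate was 1.31 ± 0.21 (SE; edgeR adjusted p = 0.00099), and the call was kept in all 6 fits that left out 1 mouse.

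Sirpa had the most even contralateral level of the 6, between 228 and 311 normalised counts (264 ± 28.8, SD, n = 6). Its injured level was 291, 357 and 563 in WT mice 12, 26 and 36 and 863, 537 and 399 in KO mice 17, 23 and 32. Only the injured kidney of mouse 12 reached down into the contralateral range. The within-mouse ratios ran from 1.14 (mouse 12) to 2.77 (mouse 17), and the estimate was 0.84 ± 0.19 (SE; edgeR adjusted p = 0.0094). The call was lost without mouse 23, 26 or 36 (adjusted p = 0.11, 0.072 and 0.10).

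Itgam, the CD11b gene, went from 69.9 to 135 normalised counts in mouse 12, from 172 to 229.7 in mouse 26 and from 118 to 378 in mouse 36. In KO mice 17, 23 and 32 it went from 152 to 619, from 128 to 384 and from 138 to 251. The sides overlapped, since the injured kidney of mouse 12, at 135, lay within the contralateral range, which reached 172. The other injured kidneys lay at 229.7 or more. The estimate of 1.27 ± 0.19 (SE; edgeR adjusted p = 0.00051) ranked at place 12 of 682, and the call was kept in all 6 fits that left out 1 mouse.

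Taken mouse by mouse, 5 of the 6 markers had a higher normalised count on the injured side in all 6 mice, where 8.8% of all genes did so. With counts scaled to the housekeeping genes the same number of markers, 5, was higher in all 6 mice, against 9.09% of all genes. In normalised counts no marker had all 6 injured libraries above all 6 contralateral ones (0 of 6, background 1.47%). In raw counts 1 marker did, Itgam, with injured kidneys at 143 or more and contralateral kidneys at 130 or less, against 1.91% of all genes, and after background subtraction 1 marker did, Sirpa, again against 1.91%. WT mouse 26 had the lowest ratio of all mice for Adgre1, Cx3cr1, Csf1r, Cd68 and Itgam in TMM-normalised and in housekeeping-scaled counts. KO mouse 17 had the highest for Adgre1, Cd68, Sirpa and Itgam in TMM-normalised counts. For Csf1r it was level with KO mouse 23 (2.304 and 2.303). With housekeeping scaling WT mouse 36 was highest for Adgre1 (log2 1.16), Cx3cr1 (1.24), Sirpa (1.46) and Itgam (1.95), and mouse 17 for Cd68 (2.08). Scaling to the positive controls, which leaves differences in RNA amount in the counts, moved the median of all genes from -0.07 to 0.27 and left 2 of the 5 calls, Cd68 and Itgam. Without the block for mouse the same 2 genes passed.

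**Figure D2:**
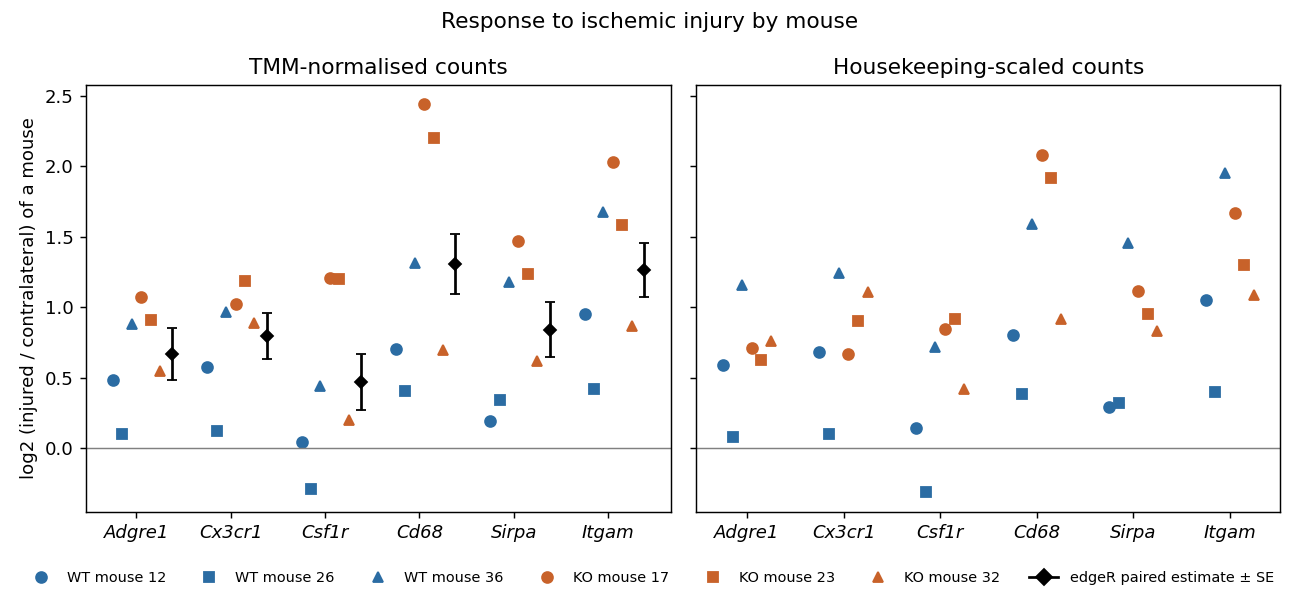
Log2 ratio of injured to contralateral kidney for each mouse and marker, from TMM-normalised counts (left) and counts scaled to housekeeping genes (right). Black diamonds on the left are the edgeR paired estimates with their SE (6 mice), from 0.47 for Csf1r to 1.31 for Cd68.

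Ratios between the markers were used to ask whether those of the resident and infiltrating types moved apart. Among the 6, Itgam was taken as the infiltrating-type marker and Adgre1 and Cx3cr1 as resident-type markers. Ratios of raw counts within a library were used, since any scaling of a library cancels in them. A ratio of probe counts compares libraries, not the abundance of the genes, because probes capture their targets unequally.

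Itgam gained on Adgre1 in all 6 mice. The ratio of Itgam to Adgre1 was 0.414, 0.356 and 0.300 in the contralateral kidneys of WT mice 12, 26 and 36, and 0.385, 0.387 and 0.391 in those of KO mice 17, 23 and 32. In the injured kidneys of the same mice it was 0.570, 0.444 and 0.522 (WT) and 0.746, 0.620 and 0.490 (KO). Every injured kidney, from 0.444 upward, lay above every contralateral kidney, none of which exceeded 0.414. Such separation was not particular to this pair: Cd68 to Csf1r ran up to 0.453 in contralateral and from 0.541 in injured kidneys. How many other genes separate the sides in their ratio to Adgre1 was not counted. The mean ratio of Itgam to Adgre1 was 0.372 ± 0.0398 in contralateral and 0.565 ± 0.108 in injured kidneys (SD, n = 6), a 1.50-fold mean change within mice (log2 0.59, SD 0.26). The exact two-sided sign-flip permutation test over mice gave p = 0.03125, the smallest that 6 mice allow, and 0.0625 after adjustment over the 2 ratios tested. With the background of the negative controls subtracted the mean change was 0.81 and the adjusted p 0.03125.

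Itgam against Cx3cr1 showed a less regular shift. The contralateral ratio ran from 0.487 to 0.726 and the injured ratio from 0.662 to 1.08, so the sides overlapped. It was higher on the injured side in 5 of 6 mice, KO mouse 32 being level at -0.02 on the log2 scale, and the mean change was 0.46 (SD 0.35; 1.37-fold). The exact sign-flip p was 0.0625, and 0.0625 adjusted over both ratios. After background subtraction all 6 mice were higher, KO mouse 32 only slightly (0.582 contralateral, 0.597 injured). The mean was then 0.61 and the adjusted sign-flip p 0.03125, the smallest that 6 mice allow. Values of these genes in these libraries were known when the ratios were chosen, so the tests are not independent evidence of the direction.

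The shift of Itgam against Adgre1 was present in each genotype. Its mean log2 change was 0.53 ± 0.24 in WT and 0.65 ± 0.32 in KO mice (SD, n = 3 each), and the exact permutation p for the difference between genotypes was 0.6, where 3 mice against 3 cannot go below 0.1. Against Cx3cr1 the mean change was 0.46 in both genotypes, and the exact permutation p was 1.

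The remaining ratios are given as descriptions, without a test. Cx3cr1 to Adgre1, the ratio of the resident-type markers to each other, had a mean log2 change of 0.13 (SD 0.15) and was higher on the injured side in 5 of 6 mice. It ran from 0.534 to 0.716 in contralateral and from 0.647 to 0.740 in injured kidneys, and after background subtraction 6 of 6 mice were higher (mean 0.20). Cd68, like Itgam, was higher relative to Adgre1 on the injured side in 6 of 6 mice, with a mean log2 change of 0.63 (SD 0.55; 0.83 after background subtraction) beside 0.59 for Itgam. Sirpa to Adgre1 was higher in 5 of 6 mice (0.17, SD 0.25), and Itgam to Sirpa in 6 of 6 (0.41, SD 0.24). Cd68 to Csf1r was higher on the injured side of all 6 mice (mean log2 change 0.83, SD 0.26), as was Itgam to Csf1r (0.79, SD 0.28) and Sirpa to Csf1r (0.37, SD 0.27). Itgam to Cd68 showed no common direction (mean -0.04, SD 0.39). Csf1r to Adgre1 fell in all 3 WT mice by much the same amount, -0.42 ± 0.03 on the log2 scale (SD, n = 3), whereas KO mice had a mean of 0.03 ± 0.33, mice 17 and 23 being higher and mouse 32 lower in the injured kidney. In the injured kidneys the Csf1r to Adgre1 ratio of all 6 mice lay between 0.777 and 0.967. In the contralateral kidneys it spread from 0.771 to 1.32.

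**Figure D3:**
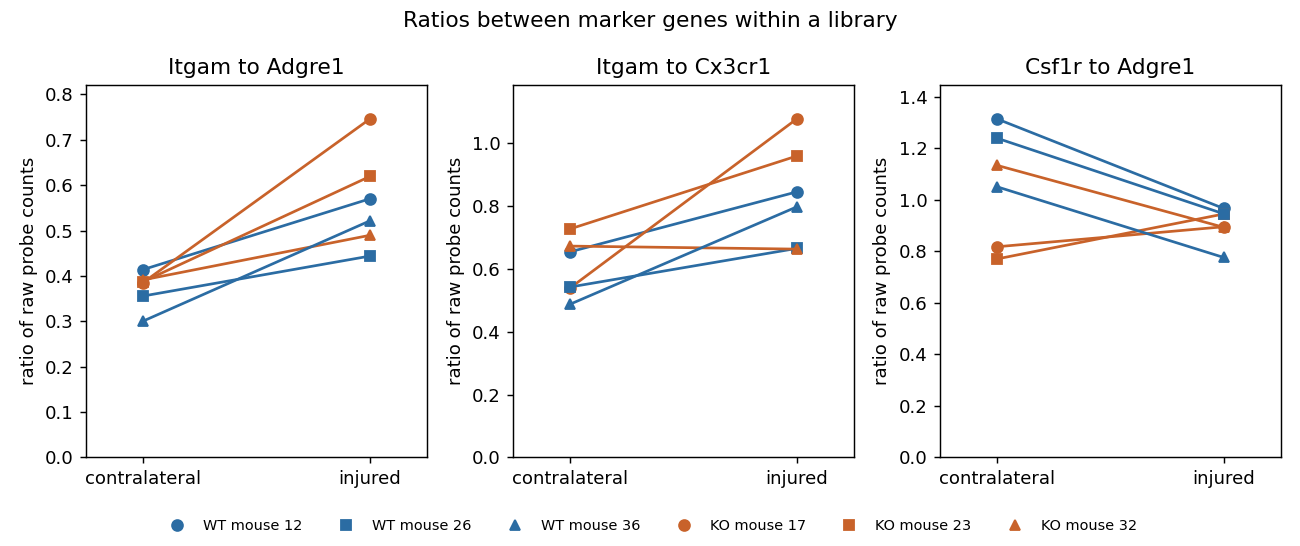
Ratio of raw probe counts within each library for Itgam to Adgre1, Itgam to Cx3cr1 and Csf1r to Adgre1, contralateral and injured kidney of each mouse joined by a line, WT in blue and KO in orange, axes from 0. Itgam to Adgre1 separates the sides, with contralateral values up to 0.414 and injured values from 0.444.

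As a share of the summed counts of the 6 genes, Csf1r was lower on the injured side in 6 of 6 mice, 19.3% ± 1.84 against 24.5% ± 3.51 (SD, n = 6). Cd68 went from 9.77% ± 0.912 to 13.8% ± 2.40 and Itgam from 8.75% ± 1.16 to 11.9% ± 1.34, each higher in 6 of 6 mice. Adgre1 went from 23.6% ± 2.92 to 21.4% ± 2.04 and was lower in 5 of 6 mice. The share of Cx3cr1 was 14.7% and 14.6%, higher in 3 of 6 mice, and that of Sirpa 18.7% and 18.9%. Such shares add up to the whole, so a gain of some members lowers others.

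Wider marker lists place the 6 genes among others of their kind, with the responses of both genotypes averaged. Of 17 resident-type genes kept, 9 rose and none fell, beside a background of 7.33% of all genes called as higher. Those with the smallest p were Mrc1, the mannose receptor (log2 1.26 ± 0.19 SE, edgeR adjusted p = 0.00051), Trem2, a lipid-sensing receptor (1.13 ± 0.18, adjusted p = 0.00079), and Apoe, a lipid carrier (1.75 ± 0.32, adjusted p = 0.0018). Estimates were positive for 13 of the 17. Named after their values were seen, Siglec1 (0.13), Mertk (0.08), Marco (-0.07), Timd4 (-0.14), Cd163 (-0.28) and Cd74 (-0.33) did not pass. Trem2, Siglec1 and Marco were below the threshold in 2, 4 and 7 of 12 libraries. Of 15 infiltrating-type genes kept, 4 rose: Itgam, Cx3cr1, which stands in both lists, Fn1, the fibronectin gene (1.33 ± 0.22, adjusted p = 0.0010), and Ccr2, the receptor that brings monocytes out of the marrow (0.79 ± 0.16, adjusted p = 0.0031). Leaving out the markers described here, 7 of 14 resident-type and 2 of 13 infiltrating-type genes rose, with medians of 0.54 and -0.00 against -0.07 over all genes. Ly6c1, which endothelial cells also express and which was chosen here after its values were seen, had an estimate of -0.00 ± 0.38 (adjusted p = 0.998). The list shared by all macrophages had 9 of 16 genes raised, and the 4 with the smallest p were Cd84, a cell-surface receptor of leukocytes (1.89 ± 0.27), Cd68, and the IgG receptor genes Fcgr3 (1.15 ± 0.19) and Fcgr1 (0.94 ± 0.16). Cd84 was below the threshold in 5 of 12 libraries, with a lowest raw count of 19, so the size of its rise is uncertain. None of the 12 neutrophil genes kept passed (edgeR; median -0.19), and the summed normalised count of the 13 on the panel was higher on the injured side in 2 of 6 mice, from 464 to 1966 in contralateral and 443 to 1918 in injured kidneys. As a share of endogenous counts they were higher in 4 of 6 mice, from 0.124% to 0.933% in contralateral and 0.126% to 1.003% in injured kidneys. Only 5 of these 13 genes reached the threshold in all 12 libraries, so the list can say little about neutrophils. Its median estimate was 0.10 in WT and -0.54 in KO mice. Camp, singled out after its values were seen, was below the threshold in 12 of 12 libraries. Of the 11 dendritic cell genes kept, 1 rose, Sirpa itself.

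**Figure D4:**
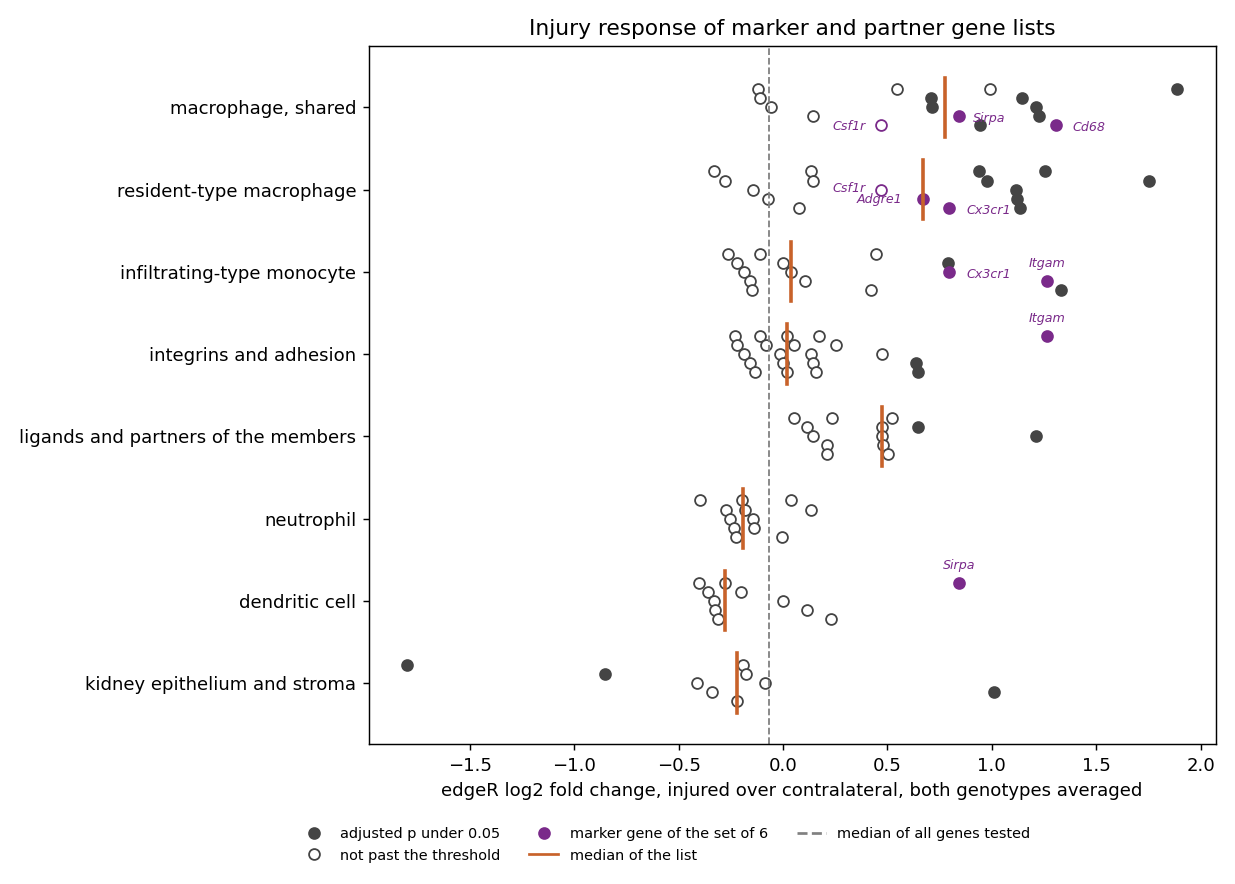
Log2 fold change of injured over contralateral kidneys (edgeR, 6 mice, both genotypes averaged) for each gene of 8 marker and partner lists, filled where the adjusted p is under 0.05, with the 6 markers in purple. Orange bars are list medians, from -0.28 (dendritic cell) to 0.78 (macrophage, shared), and the dashed line is the median of all 682 genes, -0.07.

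Ligands, binding partners and regulators of the 6 markers formed a list of 13 genes kept, all with positive estimates (median 0.47), of which 2 passed the test. Tyrobp, the adaptor also known as DAP12 that couples many myeloid receptors to the kinase Syk, went from 376 ± 102 to 892 ± 308 normalised counts (SD, n = 6; log2 1.21 ± 0.22 SE, edgeR adjusted p = 0.0016). Itgb2, the CD18 partner of CD11b, went from 102 ± 31.1 to 159 ± 48.0 (0.65 ± 0.17, adjusted p = 0.027), about the size of the Adgre1 estimate of 0.67 and below the 1.27 of Itgam. The ligands of Mac-1 did not pass: C3, the source of iC3b, had an estimate of 0.48 (adjusted p = 0.060) and Icam1 one of 0.47 (adjusted p = 0.10), each higher in 6 of 6 mice. Csf1, a ligand of the Csf1r receptor, had 0.24 (adjusted p = 0.60), Cx3cl1, which encodes fractalkine, 0.21 (0.70, with 7 of 12 libraries below the threshold), and Cd47, the ligand of SIRP alpha, 0.05 (0.91). The kinase Syk and the signalling protein Vav1 had 0.50 and 0.52, and the transcription factors Cebpb, Cebpa and Irf8 had 0.47, 0.21 and 0.12, none past the threshold (adjusted p from 0.12 to 0.76).

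Among integrin and adhesion genes, 3 of 21 rose with injury: Itgam, Itgb2 and Selplg, the gene of the selectin ligand PSGL-1 (0.64 ± 0.18 SE, edgeR adjusted p = 0.041). The background was 7.33% of all genes, and without Itgam the count was 2 of 20. The median of this list was 0.02. Itgal and Itga4, the alpha chains of other leukocyte integrins, had estimates of -0.16 and -0.19 (adjusted p = 0.69 and 0.68). They were named with their values in view.

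Across the 12 libraries, the genes whose log2 normalised counts were most like each marker can be listed as a description. Libraries share their scaling and 2 come from each mouse, so the points are not independent. Adgre1 and Cx3cr1 were each other's nearest gene (Pearson's r = 0.99, n = 12), followed for both by C5ar1, the receptor of complement C5a (0.98 and 0.97). The next gene was Nlrp3, an inflammasome sensor, for Adgre1 (0.98) and C3ar1, the receptor of complement C3a, for Cx3cr1 (0.97). Csf1r was closest to the immune checkpoint gene Vsir (0.97), the endotoxin co-receptor gene Cd14 (0.96) and Ptprc, which encodes the leukocyte antigen CD45 (0.95). Cd68 was closest to the lysosomal protease gene Ctss (0.99), C1qb, a subunit of complement C1q (0.98), and Stab1, a scavenger receptor gene (0.98). Sirpa was closest to Stab1 (0.97), Cd68 (0.96) and Il1a, which encodes interleukin-1 alpha (0.96). Il1a was below the threshold in 9 of 12 libraries. Itgam was nearest to Mpeg1, the perforin-like gene of macrophages, Mrc1 and the chemokine gene Ccl9, each at 0.99. Between the members themselves, r ranged from 0.73 for Csf1r with Sirpa to 0.99 for Adgre1 with Cx3cr1.

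Within WT mice alone, none of the 6 markers passed the test. The estimates were 1.02 ± 0.27 for Itgam, 0.81 ± 0.30 for Cd68, 0.57 ± 0.27 for Sirpa, 0.56 ± 0.23 for Cx3cr1, 0.49 ± 0.26 for Adgre1 and 0.07 ± 0.28 for Csf1r (log2, SE, 3 mice). Their edgeR adjusted p ran from 0.11 for Itgam to 0.96 for Csf1r. The count of 0 of 6 stands beside 0.733% of all genes called (5 of 682, with 57 at an unadjusted p under 0.05), and DESeq2 also called 0 of the 6, against 1.03% of all genes. A fit on the WT libraries alone called 2 of the 6, Cd68 and Itgam, among 35 genes called as higher and 20 as lower. In this genotype the direction for Csf1r was not settled: its estimate was -0.04 with DESeq2 size factors and -0.02 with no filter on low counts.

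Within KO mice, 4 of the 6 rose: Cd68 by 1.80 ± 0.31, Itgam by 1.51 ± 0.27, Sirpa by 1.12 ± 0.27 and Cx3cr1 by 1.03 ± 0.23 on the log2 scale (SE, 3 mice), with edgeR adjusted p of 0.0025, 0.0031, 0.018 and 0.011. Csf1r at 0.88 ± 0.28 (adjusted p = 0.074) and Adgre1 at 0.85 ± 0.26 (adjusted p = 0.066) lay just short of the threshold. The background was 6.6% of genes called as higher (45 of 682). DESeq2 called 6 of the 6 as higher, against 8.65% of all genes (59 of 682). Sirpa and Cx3cr1 lost their calls in a fit on the KO libraries alone (adjusted p = 0.078 and 0.067), and Cx3cr1 with housekeeping scaling (0.052). Without the block for mouse, or with positive control scaling, no marker passed in KO mice.

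All 6 responses had larger estimates in KO than in WT mice, and no difference between the responses passed the test. The KO minus WT difference was 0.99 ± 0.43 for Cd68, 0.81 ± 0.39 for Csf1r, 0.55 ± 0.38 for Sirpa, 0.49 ± 0.38 for Itgam, 0.47 ± 0.33 for Cx3cr1 and 0.35 ± 0.37 for Adgre1 (log2, SE). Approximate 95% intervals ran from 0.16 to 1.83 for Cd68, from 0.04 to 1.58 for Csf1r and from -0.37 to 1.08 for Adgre1, while the edgeR adjusted p over all genes was between 0.41 and 0.55. Over the whole panel 0 of 682 genes were called (0%), 75 had an unadjusted p under 0.05, and DESeq2 called 0. The value rests on which KO mice enter: in TMM-normalised counts mouse 32 had a smaller response than mice 17 and 23 in all 6 genes. With housekeeping scaling its log2 response was larger than theirs for Adgre1 (0.76 against 0.71 and 0.62) and Cx3cr1 (1.11 against 0.67 and 0.90). Without mouse 32, 4 of the 6 were called, Csf1r, Cd68, Sirpa and Itgam (adjusted p = 0.0016, 4.4e-05, 0.018 and 0.0097), in a fit that also called 160 genes as more and 163 as less responsive in KO mice. With housekeeping scaling the median of all genes in this comparison moved from -0.02 to -0.29.

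KO and WT mice were then compared on each side. Between injured kidneys no marker differed past the threshold. The KO minus WT estimates were 0.86 ± 0.43 for Cd68, 0.77 ± 0.43 for Itgam, 0.58 ± 0.34 for Sirpa, 0.48 ± 0.42 for Csf1r, 0.47 ± 0.44 for Cx3cr1 and 0.41 ± 0.44 for Adgre1 (log2, SE), each with an edgeR adjusted p of 0.9999. Across the panel 0% of genes were called, 5 had an unadjusted p under 0.05 and DESeq2 called 3, none of them a marker. Normalised Cd68 was 277 ± 119 in WT and 501 ± 259 in KO injured kidneys (SD, n = 3 each), and Itgam 248 ± 123 and 418 ± 186, with the groups overlapping. Without mice 12 and 17, which hold the libraries with the most RNA, the estimates for Adgre1, Cx3cr1 and Csf1r were -0.15, -0.09 and -0.03.

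Between contralateral kidneys the estimates lay closer to 0. They were -0.34 ± 0.42 for Csf1r, 0.23 ± 0.44 for Itgam, -0.19 ± 0.44 for Cd68, 0.05 ± 0.44 for Adgre1, 0.03 ± 0.34 for Sirpa and -0.00 ± 0.46 for Cx3cr1 (log2, KO minus WT, SE), with edgeR adjusted p from 0.73 to 0.9998. Again 0% of genes were called, with 3 at an unadjusted p under 0.05 and 0 by DESeq2. The approximate 95% intervals were wide, from -1.16 to 0.49 for Csf1r and from -0.64 to 0.69 for Sirpa, and a p above the threshold does not show that the genotypes were alike. The sign of the estimates for Adgre1, Sirpa, Cx3cr1 and Itgam changed with the processing.

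**Figure D5:**
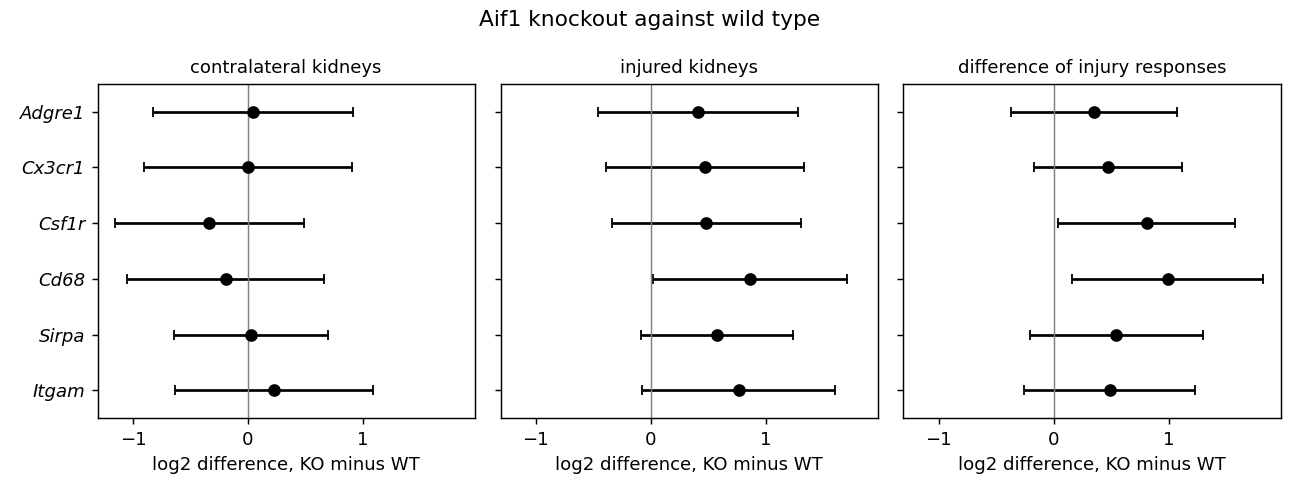
KO minus WT difference (log2, edgeR) for the 6 markers in contralateral kidneys, in injured kidneys and in the response to injury, with approximate 95% intervals (3 mice per genotype). Estimates lie near 0 in contralateral kidneys (-0.34 to 0.23) and above 0 in the other panels, and none passed the adjusted threshold.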

How the data were processed

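The deposited table holds whole-number counts for 768 probes in 12 libraries, per the file headers and values, with control probes included (734 endogenous, 20 housekeeping, 6 positive and 8 negative). The totals differ between libraries, so the values were treated as raw. Whether the authors normalised them, and the software, panel and cartridges, is not given in the sources used here. Per the labels' protocols, cells were selected with a biotin-labelled F4/80 antibody on an immunomagnetic column and RNA was isolated with a column kit. Of 754 gene probes, 744 matched a symbol of the RefSeq table for GRCm38.p6. No sequence or position was used.

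Genes were kept where the raw count reached 53.1 (mean plus 2 SD of the negative controls) in at least 3 libraries (682 of 734). The 20 housekeeping genes, used as an alternative scaling, were taken by name. The main fits used edgeR 4.0.16 (R 4.3.3), TMM factors and quasi-likelihood tests over all 12 libraries, blocked by mouse for responses to injury and group means for KO against WT. P-values were adjusted over all genes kept, and calls are adjusted p under 0.05. Approximate intervals are estimates plus or minus 1.96 SE, with SE taken from the F value. They are narrower than the quasi-likelihood test implies and do not stand in for its p. Ratios of raw counts were tested by exact sign-flip permutation over 6 mice. The scripts were tested on simulated data. All 6 markers counted 80 or more in every library, against a mean negative control of 28.75 to 36.25.

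The kidneys of a mouse are paired by the animal, which the series' design states. Their deviations from the group means correlated at 0.96, 0.88 and 0.72 in WT mice 12, 26 and 36, and at -0.13, 0.37 and -0.49 in KO mice 17, 23 and 32. No replicate libraries agreed within sampling noise (lowest chi-square per degree of freedom 5.61). Alternatives were DESeq2 1.42.0 with its size factors, housekeeping and positive control scaling, no filter, background subtraction with limma 3.58.1, other pairings, fits on part of the libraries, and each mouse left out. The fit without mice 12 and 17 was added after seeing the data.

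The markers and all gene lists were chosen with earlier results of these data known. Named genes are the 6 markers, Aif1, the partners of the markers, up to 4 genes per other list with the smallest p, and the 3 genes most correlated with each marker. Exceptions are stated, and 1 partner gene is not reported here by name.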

Additional observations from a re-analysis of the deposited data

How the results depend on the processing

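All 6 markers counted above the negative controls in all 12 libraries, and each genotype had 3 mice. The number of the 6 markers called for the averaged response (5) was 2 with positive control scaling and 2 with no replicate block, and 2 to 6 with 1 mouse left out. For KO mice (4) it was 0 with positive control scaling, 0 with no replicate block, 2 without mice 12 and 17, 2 with that genotype alone, and 2 to 6 with 1 mouse left out. For WT mice (0) it was 2 with that genotype alone, and 0 to 2 with 1 mouse left out. For the difference of responses (0) it was 0 to 4 with 1 mouse left out. In the main fits the shares of all genes called were 7.33%, 6.6%, 0.733% and 0%, in the same order. The share changed between settings too, widely so in the fit without mouse 32 described above. Counts of markers from different settings are therefore not comparable by themselves. The cause was not tested.

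After background subtraction the Itgam ratios to Adgre1 and Cx3cr1 (0.81 and 0.61) passed at an adjusted p under 0.05. Both adjusted sign-flip values were 0.03125, the smallest that 6 mice allow. With no replicate block the changes were 0.59 and 0.46 (exact unpaired permutation p = 0.0022 and 0.015 for 6 against 6). That test ignores the pairing of the kidneys of a mouse, and 0.0022 is the smallest p it can give. The paired sign-flip test of the raw ratios gave an adjusted p of 0.0625 for both. With 1 mouse left out the paired changes ranged from 0.52 to 0.64 and from 0.35 to 0.56, where the exact permutation test over 5 mice cannot go below 0.0625. In a mouse-paired model with mouse as a random replicate block (correlation 0.58) 0 markers differed between genotypes on either side.

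Signs that changed belonged to estimates short of the threshold. Csf1r in WT mice (0.07) was -0.037 with DESeq2, -0.037 with its size factors, -0.018 with no filter, -0.0099 with that genotype alone and -0.12 to 0.12 with 1 mouse left out. Between contralateral kidneys, Adgre1 (0.05) was -0.048 with DESeq2, -0.049 with its size factors, -0.45 with positive control scaling, -0.067 with no filter, -0.062 with that side alone, -0.0079 with the random block, -0.42 without mice 12 and 17, and -0.33 to 0.22 with 1 mouse left out. Sirpa (0.03) in the same order was -0.15, -0.15, -0.71, -0.15, -0.14, -0.035, -0.17 and -0.21 to 0.0054, and -0.055 with background subtraction. Cx3cr1 (-0.00) was 0.095 with housekeeping scaling, 0.0029 with background subtraction, 0.032 with the random block and -0.38 to 0.20 with 1 mouse left out. Itgam (0.23) was -0.30 with positive control scaling, -0.17 without mice 12 and 17 and -0.10 to 0.41 with 1 mouse left out. Between injured kidneys, Adgre1, Cx3cr1 and Csf1r were -0.15, -0.093 and -0.031 without mice 12 and 17.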
